A study of Mus musculus with 12 samples.

Results

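Among 18193 mouse genes that a microarray probe set names alone, 103 (0.566%) had their highest level in embryonic stem cells held without leukemia inhibitory factor (LIF) and lower levels in each of the other 3 stages of a cardiac differentiation series. A gene was kept when its mean in the LIF-free cells, ES-LIF(-), lay at least 0.8 above its mean in stem cells with LIF, in cardiopoietic cells and in cardiomyocytes, on the scale log2(signal + 16), and when its mean ES-LIF(-) signal was 200 or more. A signal is the brightness of a probe set on an Affymetrix mouse genome array as summarized by MAS5, scaled to a trimmed mean of 500 per array, and of several probe sets for a gene the brightest, by mean log2 over the arrays, was used. The margin of a gene is its ES-LIF(-) mean minus its highest mean in any other stage, so each margin is 0.8 or more by choice. Every contrast of ES-LIF(-) with another stage chose the genes, and those values are given as a description with no test. Comparisons among the other 3 stages were tested.

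The series held 12 arrays, 3 from each of 4 stages, all from the murine stem cell line CGR8, grown without feeder cells. ES-LIF(+) cells had LIF and 7.5% serum, and ES-LIF(-) cells had spent 48 h with no LIF. Both derived populations, cardiopoietic cells (CP) and cardiomyocytes (CM), came from stem cells given a mixture of BMP, TGFβ, IL-13, IL3, IGF1, VEGF, EGF, FGF and IL6. CP then spent 5 days in medium with 3% serum and TNFα at 30 ng/ml, CM spent 9 days with 20% serum, and both were enriched on Percoll density gradients. The sources used here name no other genotype or treatment, 1 cell line was used throughout, and culture time, serum, cytokines and gradient differ together between the stem cell stages and CP or CM, so their parts cannot be told apart. The 3 arrays of a stage are described as separate biological samples by the study. RNA was taken from whole populations, in which fewer cells of a type and less RNA per cell cannot be told apart.

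LIF acts through the gp130 receptor and STAT3 to keep mouse stem cells in a self-renewing state that resembles the epiblast before implantation. When LIF is withdrawn the cells leave that naive state and take on features of the epiblast after implantation, through a phase often called formative. In that phase transcription factors such as OTX2 and POU3F1 (OCT6) come on, the enzymes that place new DNA methylation rise, FGF5 appears, and the tissue is a polarized epithelium that has not yet chosen a germ layer.

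The labels of the stem cell stages were checked against gene lists. Of 18 tested genes of naive pluripotency 17 were lower in ES-LIF(-) than in ES-LIF(+) and none was higher, and of 13 tested targets of LIF and STAT3 10 were lower and 1 was higher. Klf4 and Tfcp2l1, called lower, are on both lists and count in each. The call needed a limma adjusted p under 0.05 and a fold over 1.5, which 4.13% (higher) and 3.8% (lower) of 13145 tested genes met in that contrast. Of 12 general pluripotency genes 2 were lower and none was higher. The naive list summed to signals of 70943 to 76647 in ES-LIF(+) and 16518 to 24116 in ES-LIF(-). It stood higher again in CP, at 41193 to 42232, and at 11095 to 13119 in CM. Summed signals of the fibroblast and feeder list were 1052 to 1474 in ES-LIF(+), 1199 to 1718 in ES-LIF(-), 94352 to 100839 in CP and 50420 to 51520 in CM, with 2 of 8 tested genes higher in ES-LIF(-) than in ES-LIF(+). Those of the cardiomyocyte list were 815 to 1048, 1003 to 1330, 2491 to 2887 and 134962 to 158159 in the same order. The third CM array stood apart in embryonic globin, with 7947 for Hbb-bh1 against 424 and 1812 on the other CM arrays.

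The peak of the 103 genes had a median margin of 1.02, with a range from 0.80 to 2.01. A margin of 1.0 or more was found for 55 genes, 1.2 or more for 26 and 1.5 or more for 4, namely Pim2, Tmem54, Otx2 and Sox3. The stage that came next was ES-LIF(+) for 71 genes, CP for 24 and CM for 8. On the level scale the median of the genes' mean signals was 603 in ES-LIF(-), against 259 in ES-LIF(+), 199 in CP and 181 in CM. For 102 genes the lowest ES-LIF(-) array was above the highest of the other 9 arrays, a pattern that 7.58% of the tested genes showed. The exception was 2610316D01Rik, an uncharacterized locus, with 208, 202 and 277 in ES-LIF(-) and 226 on the first CP array. The rule chose the members on these same values, so nothing is read from their lack of overlap or from the share among all genes. All 103 genes were tested, having passed the filter that 3 or more arrays read above their median probe set, and every ES-LIF(-) array of every member met that mark.

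**Figure D1:**
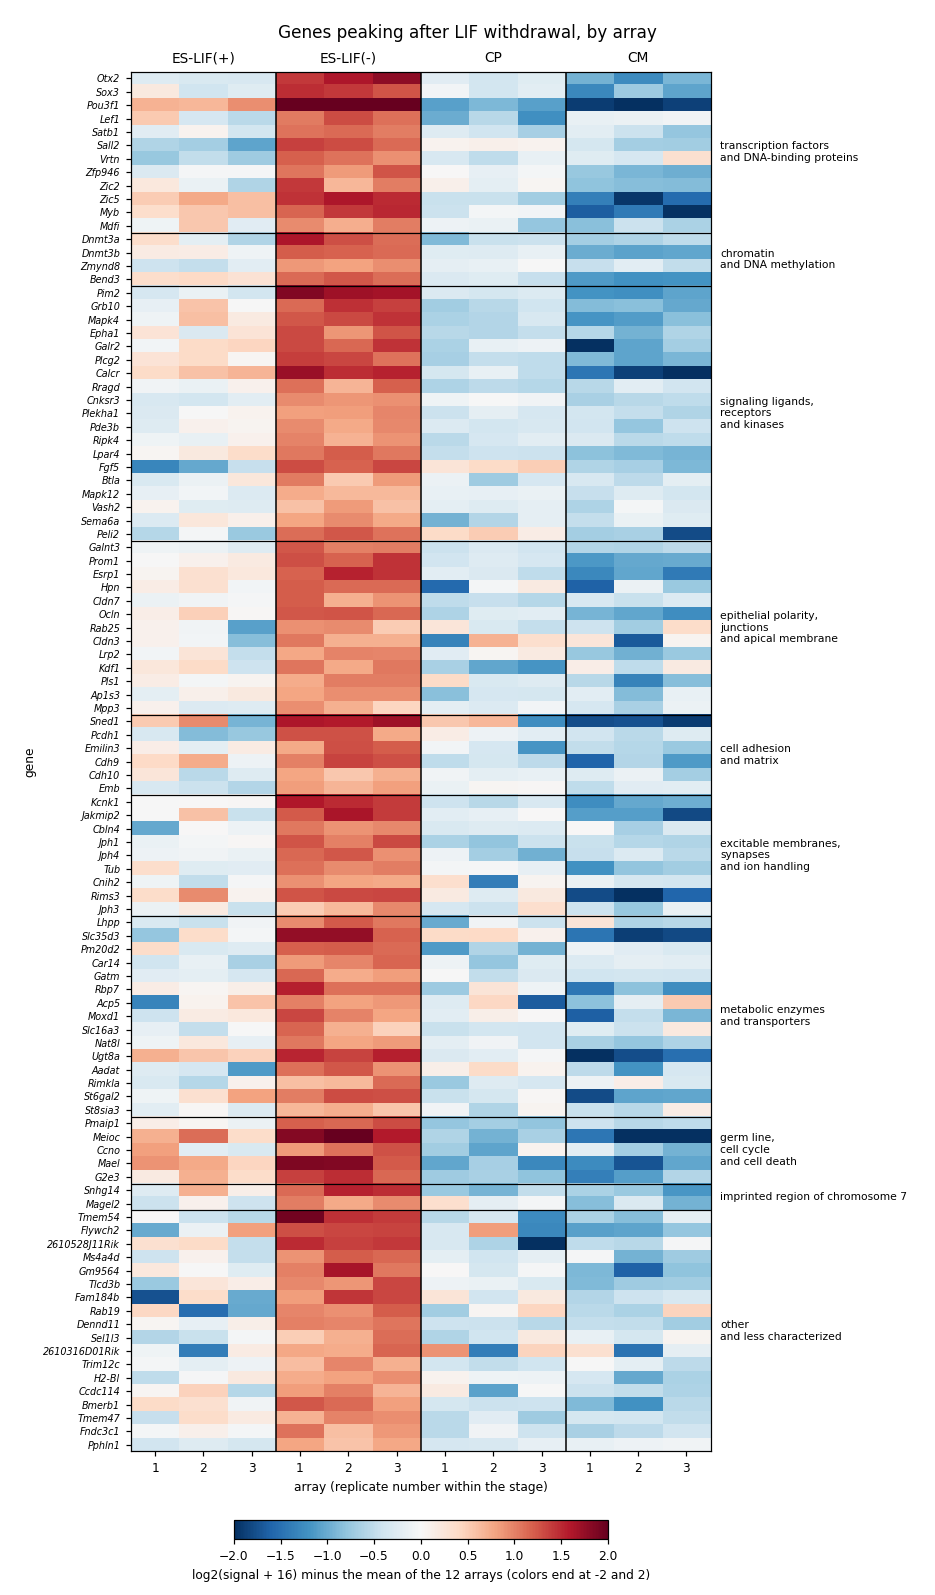
Signals of the 103 genes (rows, grouped by role) on the 12 arrays (columns), as log2(signal + 16) minus the gene's mean over all arrays, in red above and blue below it. The 3 ES-LIF(-) columns are red in all rows because the genes were chosen for it, while the CM columns hold deep blue for Pou3f1, Meioc, Rims3, Ugt8a and Calcr.

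The 3 ES-LIF(-) arrays resembled one another in how far the genes stood up. The median deviation of the members from their own mean over 12 arrays was 1.08 to 1.10 on those arrays, -0.08 to -0.01 on the ES-LIF(+) arrays, -0.33 to -0.28 in CP and -0.67 to -0.58 in CM. The highest array was the first for 40 genes, the second for 33 and the third for 30. The median SD between the arrays of a stage was 0.15 in ES-LIF(-), 0.25 in ES-LIF(+), 0.18 in CP and 0.20 in CM on the log2 scale.

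The other 3 stages were compared with one another with limma over all 13145 tested genes. Between CP and ES-LIF(+) 4 members were higher and 23 were lower, which is 3.88% and 22.3% of the 103, where 18.9% and 13.4% of all tested genes were called. Between CM and ES-LIF(+) none was higher and 41 were lower (39.8%), where 25.8% and 23.9% of all tested genes were called. Without adjustment 2 members had p under 0.05 as higher in CM, and the unmoderated linear model also called none. Between CM and CP 3 were higher and 35 were lower (34.0%), where 9.12% and 10.5% of all tested genes were called. The rule caps any rise of CP or CM over ES-LIF(+), and of CM over CP, since each must stay at least 0.8 below ES-LIF(-). Nothing is therefore read from the low counts of higher calls or from how the shares called compare with those of all genes.

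The median member differed by -0.27 between CP and ES-LIF(+), by -0.49 between CM and ES-LIF(+) and by -0.30 between CM and CP on the log2 scale, against 0.04, 0.06 and -0.04 for all tested genes. The cap limits how high the members' medians can lie in each contrast, CM against CP included. Nothing is therefore read from how these medians compare with those of all genes. In both derived stages 17 members were called lower than in ES-LIF(+), 24 were lower in CM but not called in CP, 6 were lower in CP but not called in CM, and 52 were called in neither. The 4 members that were higher in CP were not called in CM. The values for CP and CM share the ES-LIF(+) arrays. When each array was centered on its median the split between CP and ES-LIF(+) went from 4 higher and 23 lower to 1 higher and 45 lower, where 12.1% and 27.5% of all tested genes were called. Members lower in CM than in ES-LIF(+) went from 41 to 70 with that centering, where 35.1% of all tested genes were lower, and to 63 with quantile normalization, where 27.5% were. Many members were dim outside ES-LIF(-): 33 were above the array median on none of the CM arrays and 17 on none of the CP arrays, and there a difference of signals near background is least precise. Of the 35 members lower in CM than in CP, 6 were below the median on every array of both stages (Jakmip2, Slc35d3, Meioc, Rbp7, Galr2 and St6gal2), as was Slc35d3 of the 41 lower in CM than in ES-LIF(+). Among members with a call, Jakmip2, Slc35d3, Rbp7, Galr2, Cdh9, Aadat and 2610528J11Rik passed the filter only with the ES-LIF(-) arrays. Fewer than 3 of their other arrays were above the median. They stay in the counts, and their calls are not read. The summed signals of the fibroblast and feeder list and of the cardiomyocyte list, given above, were higher in CP or CM than in ES-LIF(+), and their part in these differences was not tested.

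**Figure D2:**
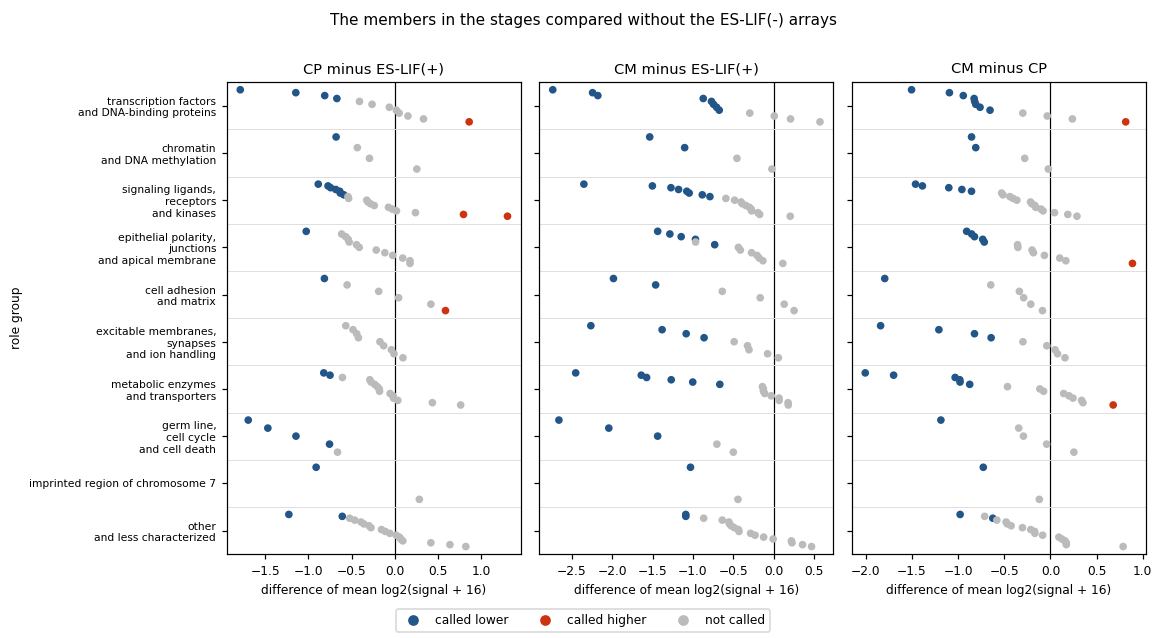
Differences of mean log2(signal + 16) for the 103 genes in the 3 contrasts that the selection did not set directly, by role group, with called genes in blue (lower) or red (higher) and genes that were not called in gray. The CM minus ES-LIF(+) panel holds 41 blue points and no red point, and the CP minus ES-LIF(+) panel 23 blue and 4 red.

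The members were sorted by known roles after their values had been seen, and no group was tested as a group. Transcription factors and DNA-binding proteins were 12 members, whose log2 difference between ES-LIF(-) and ES-LIF(+) ran from 0.82 to 2.05. In CM 8 of them were lower than in ES-LIF(+), and in CP 4 were lower and 1 was higher. Of all tested genes 23.9% were lower in CM, and 13.4% were lower and 18.9% higher in CP. Because the rule caps the members, nothing is read from how the counts of this or any later group compare with those shares.

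Otx2, a homeobox factor that redirects enhancers as cells leave naive pluripotency, gave signals of 934, 905 and 888 in ES-LIF(+), 3007, 3446 and 3894 in ES-LIF(-), 956, 861 and 945 in CP and 571, 457 and 586 in CM. The CP arrays overlapped the ES-LIF(+) arrays (log2 difference 0.02, SE 0.11, adjusted p = 0.91), and the CM arrays were below both (log2 difference -0.75, SE 0.11, adjusted p = 2.90e-05, against ES-LIF(+)). Pou3f1, the POU factor also known as Oct6, read 1251, 1223 and 1479 with LIF and 3584, 3885 and 3419.8 without it, then 351, 405 and 353 in CP and 193, 162 and 198 in CM. It was the member with the most negative difference in both derived stages (log2 difference -1.79, SE 0.11, adjusted p = 9.32e-09, in CP and log2 difference -2.73, SE 0.11, adjusted p = 3.15e-11, in CM), and no array of one stage overlapped those of another. Sox3, a SOXB1 factor of epiblast and neural plate, measured 881, 578 and 641 in ES-LIF(+), 2146, 2069 and 1845 in ES-LIF(-), 733, 589 and 661 in CP and 304, 455 and 362 in CM. Its CP arrays overlapped the ES-LIF(+) arrays, and its CM arrays were lower (log2 difference -0.87, SE 0.16, adjusted p = 2.18e-04).

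The ZIC zinc finger genes Zic2 and Zic5 are neighbors on chromosome 14 with no protein-coding gene between them. Zic2 read 324, 251 and 178 in ES-LIF(+), 763, 446 and 579 in ES-LIF(-), 297, 239 and 285 in CP and 151, 146 and 144 in CM. Zic5 read 1615, 1913 and 1709 in ES-LIF(+), 3100.4, 3496 and 3184 in ES-LIF(-), 826, 825 and 691 in CP and 426, 279.5 and 378 in CM. In CP Zic5 was lower than in ES-LIF(+) (log2 difference -1.15, SE 0.13, adjusted p = 4.38e-06) and Zic2 was not called (log2 difference 0.15, SE 0.22, adjusted p = 0.586). The difference between the genes was not tested. Both were lower in CM (log2 difference -2.24, SE 0.13, adjusted p = 1.33e-09, for Zic5 and log2 difference -0.68, SE 0.22, adjusted p = 0.0136, for Zic2).

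Sall2, a spalt-like zinc finger gene, and Lef1, a transcription factor through which β-catenin acts in WNT signaling, were called differently in CP. Sall2 read 445, 424 and 322 with LIF, 1788, 1714 and 1527 without LIF, 718, 738 and 724 in CP and 536, 423 and 417 in CM, so that CP was above ES-LIF(+) (log2 difference 0.86, SE 0.13, adjusted p = 7.07e-05), a call that was lost when arrays were centered on their medians (log2 difference 0.58). Lef1 read 504, 272 and 235 in ES-LIF(+), 732, 878 and 765 in ES-LIF(-), 167, 229.6 and 139 in CP and 309, 319 and 331 in CM. It was lower in CP than in ES-LIF(+) (log2 difference -0.81, SE 0.23, adjusted p = 0.00901), and CM was above CP (log2 difference 0.82, SE 0.23, adjusted p = 0.0127) with no overlap of arrays, although that call was lost without the third CP array (0.66).

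Satb1, a chromatin organizer that binds AT-rich DNA, read 391, 484 and 355 in ES-LIF(+), 999, 1029 and 948 in ES-LIF(-), 384, 345 and 286 in CP and 396, 337 and 263 in CM and was called in none of the 3 tested contrasts. Myb, a regulator of progenitor growth best known from blood, read 462, 531 and 554 in ES-LIF(+), 825, 989.5 and 1055 in ES-LIF(-), 264, 348 and 346 in CP and 104, 125 and 79.4 in CM. Its arrays stepped down from ES-LIF(+) to CP (log2 difference -0.67, SE 0.17, adjusted p = 0.00427) and from CP to CM (log2 difference -1.51, SE 0.17, adjusted p = 7.78e-06). The list of blood and macrophage genes had none of its 7 tested genes higher or lower in ES-LIF(-) than in ES-LIF(+). Vrtn, a DNA-binding protein associated with vertebral number, had the highest CM minus ES-LIF(+) difference of any member (log2 difference 0.57, SE 0.19, adjusted p = 0.0177), short of the 1.5-fold limit. The others were Zfp946, a zinc finger gene, and Mdfi, an inhibitor of myogenic factors, both lower in CM (-0.77 and -0.71).

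**Figure D3:**
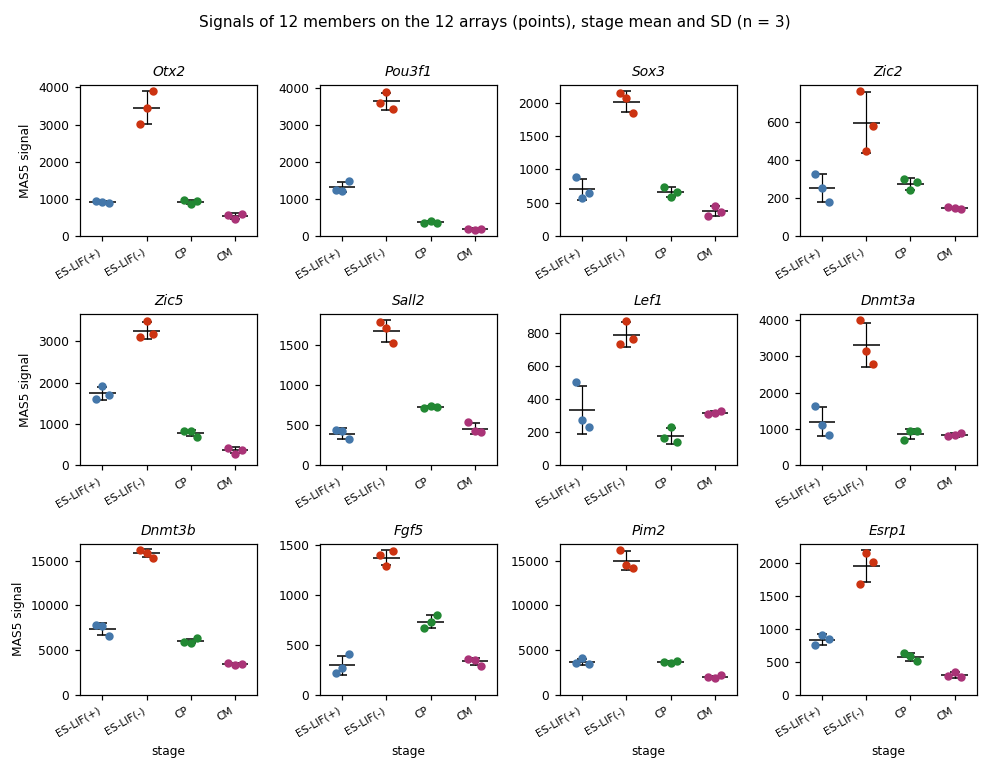
MAS5 signals of 12 members on the single arrays (points) by stage, with the stage mean (line) and SD (whiskers, n = 3), each panel on its own axis from 0. ES-LIF(-) is highest in every panel by choice of the genes, CP lies above ES-LIF(+) for Sall2 and Fgf5, and CM lies lowest for Otx2, Pou3f1, Sox3, Zic2, Zic5, Dnmt3b, Pim2 and Esrp1.

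The genes Dnmt3a and Dnmt3b, whose enzymes set new DNA methylation, were members. Dnmt3a read 1639, 1118 and 843 in ES-LIF(+), 3987, 3155 and 2792 in ES-LIF(-), 688, 942 and 953 in CP and 795, 828 and 894 in CM. Dnmt3b read 7832, 7714 and 6583 in ES-LIF(+), 16186, 15889.7 and 15335 in ES-LIF(-), 5910.4, 5813 and 6279 in CP and 3519.9, 3334 and 3394 in CM, with no overlap between CM and any other stage. Dnmt3b was lower in CM than in ES-LIF(+) (log2 difference -1.10, SE 0.07, adjusted p = 3.81e-09), and Dnmt3a was not called (log2 difference -0.46, SE 0.20, adjusted p = 0.0531). Further probe sets of Dnmt3a disagreed, and 2 of 4 had their highest level in CM.

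The chromatin reader Zmynd8 and Bend3, a repressor of CpG-rich chromatin, completed that group. Zmynd8 read 1553, 1486 and 1801 in ES-LIF(+), 3824, 3663 and 3997 in ES-LIF(-), 1826, 1868 and 2077 in CP and 1503, 1787 and 1469 in CM and was called in no tested contrast. A further Zmynd8 probe set was highest in ES-LIF(+), with means of 1359 in ES-LIF(+), 998 in ES-LIF(-), 761 in CP and 417 in CM. Others that passed the filter were highest in ES-LIF(-), with margins of 0.25 and 0.52. Bend3 read 2672, 2757 and 2558 and 4615, 4966 and 4569.7 in the stem cells and stepped down to 1707, 1757 and 1512 in CP (log2 difference -0.68, SE 0.08, adjusted p = 3.40e-06) and 939, 888 and 898 in CM (log2 difference -1.53, SE 0.08, adjusted p = 2.20e-10).

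Close relatives of these regulators, chosen after values had been seen, did not meet the rule. Dnmt1, which copies methylation after replication, differed by -0.15 between ES-LIF(-) and ES-LIF(+) (limma adjusted p = 0.166) and Dnmt3l, the cofactor of the new methylation enzymes, by -0.33 (adjusted p = 0.294). Sox2 was lower without LIF (-0.62, adjusted p = 8.29e-04), where its relative Sox3 is a member, and Sox1 was not called (0.34, adjusted p = 0.617). Sall1 (0.20, adjusted p = 0.301) and Sall4 (-0.26, adjusted p = 0.0381) stayed within 1.5-fold. Sall3 had a margin of 1.29 but a mean ES-LIF(-) signal of 85.5, under the floor, and was not tested. Zic1 was not called (0.22, adjusted p = 0.734), and Tcf7l1 and Tcf7l2, relatives of Lef1 in the TCF/LEF family, were not called either (0.23, adjusted p = 0.232 and -0.07, adjusted p = 0.849). Differences between relatives were not tested.

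Among 19 signaling genes Fgf5, the fibroblast growth factor used as the classical marker of the epiblast after implantation, had a log2 difference of 2.20 between ES-LIF(-) and ES-LIF(+). It read 218, 267 and 404 with LIF, 1401, 1291 and 1440.3 without it, 671, 733 and 798 in CP and 362, 348 and 292 in CM. All CP arrays were above all ES-LIF(+) arrays (log2 difference 1.30, SE 0.17, adjusted p = 1.71e-05), and CM was not called against ES-LIF(+) (log2 difference 0.20, SE 0.17, adjusted p = 0.322) and lower than CP (log2 difference -1.10, SE 0.17, adjusted p = 1.47e-04). A second Fgf5 probe set had its highest mean in CP.

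Pim2, a serine/threonine kinase that favors survival and growth, had the widest margin of all members. It read 3556, 4098 and 3483 in ES-LIF(+), 16214, 14594 and 14238 in ES-LIF(-), 3653, 3511 and 3717 in CP and 1942, 1899 and 2159 in CM. ES-LIF(+) and CP overlapped (log2 difference -0.03, SE 0.08, adjusted p = 0.776), and CM was below both (log2 difference -0.89, SE 0.08, adjusted p = 1.37e-07, against ES-LIF(+)). The other PIM kinases were lower after LIF withdrawal, where Pim1 differed by -0.66 (adjusted p = 0.00706) and Pim3 by -1.23 (adjusted p = 1.45e-06), and the difference from Pim2 itself was not tested.

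Receptors were a part of the signaling group. Calcr, the calcitonin receptor, read 275, 319.7 and 340.4 in ES-LIF(+), 724, 606 and 634 in ES-LIF(-), 158, 185 and 141 in CP and 65.6, 44.9 and 37.1 in CM, and it was lower at each step from ES-LIF(+) to CP to CM (log2 difference -0.89, SE 0.20, adjusted p = 0.00163, in CP against ES-LIF(+) and log2 difference -1.46, SE 0.20, adjusted p = 3.99e-05, in CM against CP). Lpar4, a receptor for lysophosphatidic acid, read 978, 1103 and 1241 in ES-LIF(+), 2004, 2233 and 2008 in ES-LIF(-), 686, 715 and 708 in CP and 536, 511 and 496 in CM. Epha1, an ephrin receptor, read 520.4, 345 and 520.1 in ES-LIF(+), 1089.7, 801 and 1042 in ES-LIF(-), 284, 278 and 300.2 in CP and 283, 214 and 275 in CM. Both were lower in CP and in CM than in ES-LIF(+), with log2 differences of -0.64 and -1.08 for Lpar4 and of -0.63 and -0.79 for Epha1. A further, dimmer Epha1 probe set went the other way, with means of 144 in ES-LIF(+), 162 in ES-LIF(-), 193 in CP and 192 in CM. Galr2, a galanin receptor, was lower in CM (log2 difference -1.50, SE 0.33, adjusted p = 0.001) and not called in CP (log2 difference -0.54, SE 0.33, adjusted p = 0.187). Galr2 passed the filter only with the ES-LIF(-) arrays, so its call is not read.

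Inside the cell, Grb10, an imprinted adaptor that restrains insulin and IGF signaling, read 1179.9, 1982 and 1317 in ES-LIF(+), 2929.9, 3681 and 3432 in ES-LIF(-), 809, 899 and 1003 in CP and 716, 731 and 644 in CM. Plcg2, a phospholipase C, read 1637, 1768 and 1392 in ES-LIF(+), 3559, 3434 and 2913 in ES-LIF(-), 852, 975 and 951 in CP and 731, 643 and 711 in CM. Mapk4, an atypical MAP kinase, read 212, 352 and 258 in ES-LIF(+), 561, 588 and 646 in ES-LIF(-), 140.3, 145 and 178 in CP and 91.2, 95.9 and 119.9 in CM. For all 3 both CP and CM were lower than ES-LIF(+), with CM minus ES-LIF(+) differences of -1.05, -1.18 and -1.27 on the log2 scale. Both further Grb10 probe sets, which were dimmer, went the other way. Their means in ES-LIF(+), ES-LIF(-), CP and CM were 168, 153, 220 and 219 and, for the second, 101, 62.9, 128 and 132. The peak of Grb10 and its lower calls thus rest on 1 probe set. Cnksr3, a scaffold of kinase pathways, Rragd, a RAG GTPase that couples amino acids to mTORC1, and Plekha1, which binds a phosphoinositide, had mean ES-LIF(-) signals of 1980.0, 2509.9 and 3646 and were within 1.5-fold of ES-LIF(+) in CP and CM. Peli2, a ubiquitin ligase of innate immune signaling that lies 1 protein-coding gene away from Otx2, was higher in CP (log2 difference 0.79, SE 0.31, adjusted p = 0.0405), a call that was lost in 13 of 22 other settings, those without 1 array included. Further Peli2 probe sets split, with means of 51.8 in ES-LIF(+) and 35.2 in CP for the first and 84.7 and 126 for the second. Ripk4, Pde3b, Mapk12, Vash2 and Btla were called in no tested contrast, and Sema6a, a semaphorin, was called lower in CP only (log2 difference -0.59, SE 0.23, adjusted p = 0.0407). A further, dimmer Sema6a probe set went the other way, with means of 94.7 in ES-LIF(+) and 162 in CP.

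Promoter sequence was read from RefSeq for 83 of the 103 genes, as 119 windows of 250 bases before to 50 bases after a transcription start in GRCm38.p6. For 3 genes the 250 bases upstream are shown, in lower case with matches of the motifs searched in capitals. Pim2 is shown as the gene with the widest margin and for its 2 octamers (ATTTGCAT, the site of POU factors), Dnmt3b for its GC boxes (GGGCGG), and Rab25, an epithelial member described further on, for a match to the site of Grainyhead-like (GRHL) factors (AACCNGTT).
Pim2 (chrX:7878056-7878305, plus strand): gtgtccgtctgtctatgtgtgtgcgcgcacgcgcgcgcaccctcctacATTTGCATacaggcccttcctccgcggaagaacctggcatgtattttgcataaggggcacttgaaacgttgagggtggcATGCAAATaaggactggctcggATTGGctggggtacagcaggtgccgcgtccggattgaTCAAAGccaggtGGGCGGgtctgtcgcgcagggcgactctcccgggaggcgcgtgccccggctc
Dnmt3b (chr2:153649199-153649448, plus strand): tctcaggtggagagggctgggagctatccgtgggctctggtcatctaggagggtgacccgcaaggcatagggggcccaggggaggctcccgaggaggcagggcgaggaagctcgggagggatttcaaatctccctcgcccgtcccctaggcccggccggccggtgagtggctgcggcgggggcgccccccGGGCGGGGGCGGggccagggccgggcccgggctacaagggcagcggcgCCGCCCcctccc
Rab25 (chr3:88548280-88548529, minus strand): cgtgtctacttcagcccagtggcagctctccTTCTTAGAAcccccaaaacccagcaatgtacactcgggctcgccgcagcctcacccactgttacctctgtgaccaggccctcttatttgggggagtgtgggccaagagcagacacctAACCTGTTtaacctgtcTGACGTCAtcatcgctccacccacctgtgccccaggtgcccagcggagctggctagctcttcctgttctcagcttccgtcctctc
In the Pim2 stretch the capitals are an octamer that begins 202 bases before the start, an octamer on the opposite strand 123 bases before it, and then, in order, a CCAAT box (opposite strand), a TCF/LEF core (CTTTGA, opposite strand) and a GC box. In the Dnmt3b stretch they are 3 GC boxes, 2 of them back to back. In the Rab25 stretch they are a STAT site (TTCNNNGAA), the GRHL site 102 bases before the start and a CREB/ATF site (TGACGTCA). A match describes letters and does not show that a factor binds.

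Over all members the motif shares were counted on both strands and set beside those of the 32851 windows of all genes and of the 13531 windows of genes tested on the arrays. The octamer was found in 1.68% of member windows (Pim2 and Sned1), against 1.74% of all windows and 1.31% of windows of tested genes. The GRHL site was found in 5.88% of member windows, 7 windows of the 5 genes Rab25, Prom1, Satb1, Cnksr3 and Gm9564, against 2.09% and 1.83%. GC boxes were found in 59.7%, against 35.7% and 60.2%. The shares for the CCAAT box were 26.1%, 37.4% and 37.2%, for the TATA box (TATAAA) 6.72%, 13.6% and 7.93%, for the E-box (CACGTG) 9.24%, 7.15% and 9.67%, and for the TCF/LEF core 10.9%, 16% and 12%. STAT sites were in 5.88%, 8.30% and 6.67%, CREB/ATF sites in 1.68%, 1.79% and 2.85%, and AP-1 sites (TGACTCA) in 5.04%, 5.20% and 3.95%. The median GC content was 60.3% in member windows, 52.7% in all and 60.3% in those of tested genes, and the median number of CpG dinucleotides per 100 bases was 4.33, 2.33 and 6.33. Windows of a gene can overlap, and no motif share was tested.

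A list of 25 genes known from the formative and primed epiblast gave the wider setting, with 24 tested. This list, like the others, was chosen with earlier results of these data known. Its share of called genes is therefore a description only. In the contrast of ES-LIF(-) with ES-LIF(+) 17 of them were called higher and none lower, and the median log2 difference was 0.84. The 11 members on the list, Fgf5, Sall2, Pim2, Otx2, Sox3, Dnmt3a, Pou3f1, Lef1, Zic2, Dnmt3b and Zic5, are among the 17 and were chosen for that rise. Of the 13 tested genes that are no members 6 were higher, where 4.13% of all tested genes were called: Fgf15 (1.32, adjusted p = 8.09e-04), a growth factor, Wnt8a (0.78, adjusted p = 0.0436), a WNT ligand, Grhl2 (0.74, adjusted p = 0.0398), a factor of epithelial identity, and the transcription factors Sox11 (0.71, adjusted p = 8.40e-05), Foxd3 (0.68, adjusted p = 0.00789) and Hes6 (0.60, adjusted p = 0.0104). The margins of these 6 were 0.08, 0.04, 0.74, 0.35, 0.68 and 0.56 in the same order, so Fgf15 and Wnt8a were nearly as high in CP. Nodal, the ligand that maintains the epiblast, differed by 0.32 (adjusted p = 0.0653) and was not called. Margins were below 0 for Cdh2 (-2.27), Krt18 (-0.97), Sox4 (-0.75) and Tcf15 (-0.14), none of them called. They were above 0 for Nodal (0.32), Utf1 (0.31) and Tead2 (0.22), also not called. The list's summed signal was 39729 to 42107 in ES-LIF(+), 79213 to 82129 in ES-LIF(-), 39417 to 39957 in CP and 34816 to 37303 in CM.

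**Figure D4:**
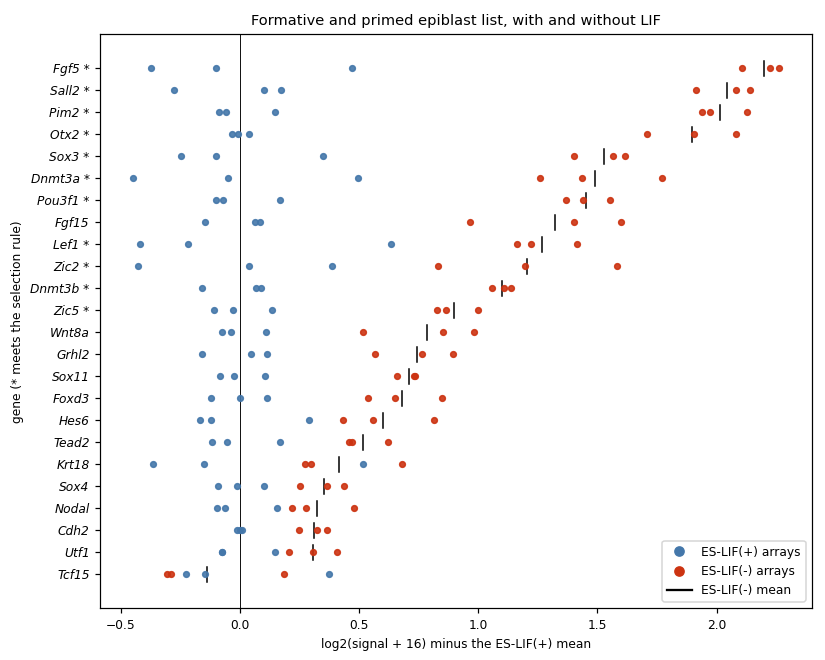
Each tested gene of the formative and primed epiblast list on the 3 ES-LIF(+) arrays (blue) and the 3 ES-LIF(-) arrays (red), as log2(signal + 16) minus the ES-LIF(+) mean, with a bar at the ES-LIF(-) mean and a star for members. The ES-LIF(-) means run from -0.14 for Tcf15 to 2.20 for Fgf5.

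Lists of other fates had few or no members among the 103. In ES-LIF(-) against ES-LIF(+) the primitive streak list had 3 of 15 tested genes higher and none lower (Mixl1, Eomes and Fgf8), and all 3 had a higher mean in CP or CM than in ES-LIF(-) (margins -1.14, -0.67 and -1.09). The neural ectoderm list had none of 8 higher and 1 lower, and the extraembryonic endoderm list had 1 of 12 higher and 1 lower. The trophoblast list had 2 of 9 higher and 1 lower, the list of FGF and ERK feedback genes 2 of 15 higher and 1 lower, and the Nodal list 1 of 12 in each direction. Of the WNT targets Lef1 was the member on a list with 2 of 9 higher and 1 lower.

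Genes of epithelial junctions, polarity and the apical membrane were 13 members, and their log2 differences between ES-LIF(-) and ES-LIF(+) ran from 0.85 to 1.25. In CM 5 of them were lower than in ES-LIF(+), and in CP 1 was, where 23.9% and 13.4% of all tested genes were. Esrp1, which sets epithelial splicing patterns, read 757, 915 and 845 in ES-LIF(+), 1684, 2164 and 2019.9 in ES-LIF(-), 629, 592 and 511 in CP and 289, 348 and 265 in CM. Its CM arrays were below all others (log2 difference -1.44, SE 0.13, adjusted p = 1.48e-07). Its relative Esrp2 was not called in ES-LIF(-) against ES-LIF(+) (-0.02, adjusted p = 0.967).

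Tight junction genes were represented by Ocln, Cldn7 and Cldn3. Ocln, which encodes occludin, read 309, 400 and 287 in ES-LIF(+), 690, 699 and 642 in ES-LIF(-), 179, 236 and 240.2 in CP and 139.6, 128 and 110.1 in CM and was lower in CM (log2 difference -1.29, SE 0.17, adjusted p = 8.75e-06). Cldn7 read 1163, 1206 and 1247 in ES-LIF(+), 2969, 2080 and 2376 in ES-LIF(-), 885, 915 and 847 in CP and 1014, 923 and 1043 in CM and was within 1.5-fold of ES-LIF(+) in both derived stages. Cldn3 was uneven within stages, with 89.2, 416 and 319.7 on the CP arrays and 299, 67.1 and 261 on the CM arrays, beside 265, 239 and 132 in ES-LIF(+) and 538, 421 and 421 in ES-LIF(-). A claudin that just missed the rule was Cldn6, with a margin of 0.79 and a log2 difference of 1.29 over ES-LIF(+) (adjusted p = 2.07e-05), while Cldn4 was not called (-0.53, adjusted p = 0.121).

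Of the apical genes, Prom1, which marks membrane protrusions, read 639, 679.5 and 724 in ES-LIF(+), 1582, 1467 and 1763 in ES-LIF(-), 487, 530 and 505 in CP and 279, 307 and 310.2 in CM, and CM was lower than ES-LIF(+) (log2 difference -1.15, SE 0.11, adjusted p = 1.55e-07). Rab25, a GTPase of apical recycling, read 219, 196 and 89.1 in ES-LIF(+), 403, 414 and 302 in ES-LIF(-), 246, 163 and 144 in CP and 151, 121 and 270.4 in CM and was called in no tested contrast. Lrp2 (megalin), an endocytic receptor, and Pls1, a plastin of microvilli, were lower in CM (-0.73 and -0.97). Kdf1, a keratinocyte differentiation factor, was lower in CP (log2 difference -1.03, SE 0.26, adjusted p = 0.00393) and higher in CM than in CP (log2 difference 0.89, SE 0.26, adjusted p = 0.014), the latter lost without CM array 1 or 3 or CP array 3 and with the mean over probe sets (0.39). Galnt3, a starter of O-glycosylation, Hpn, a membrane protease, Ap1s3, an adaptor subunit, and Mpp3, a scaffold, were called in none of the 3.

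On the list of epithelial junctions and keratins, 6 of 15 tested genes were higher in ES-LIF(-) than in ES-LIF(+) and none was lower. Of those that are no members 3 were higher, Epcam (0.62, adjusted p = 3.85e-04), Cldn6 and Grhl2. The 3 others were the members Cldn7, Ocln and Esrp1, which were chosen for that rise. Cldn3, also a member on the list, was not called in that contrast (1.11, adjusted p = 0.171). Cdh1, which encodes E-cadherin, differed by 0.47 (adjusted p = 3.59e-04), under the 1.5-fold limit, and the keratin Krt8 by -0.02 (adjusted p = 0.968). The summed signal of the list was 28395 to 34478 in ES-LIF(+), 41972 to 45351 in ES-LIF(-), 20415 to 21447 in CP and 27202 to 28248 in CM.

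A small group with germ line, cell cycle or cell death roles had 5 members. Of these 4 were lower than ES-LIF(+) in CP and 3 in CM, where 13.4% and 23.9% of all tested genes were. Meioc, needed for meiotic prophase, read 247, 331 and 192 in ES-LIF(+), 557, 790 and 462 in ES-LIF(-), 89.5, 67.2 and 85.8 in CP and 42.6, 22.3 and 17.7 in CM. It fell in each derived stage (log2 difference -1.47, SE 0.28, adjusted p = 5.00e-04, in CP and log2 difference -2.66, SE 0.28, adjusted p = 8.30e-07, in CM). Mael, which silences transposons in germ cells, read 285, 256 and 201 in ES-LIF(+), 572, 568 and 359.7 in ES-LIF(-), 62.4, 85.2 and 49.8 in CP and 51.0, 32.5 and 62.5 in CM and was lower in CP (log2 difference -1.70, SE 0.27, adjusted p = 9.64e-05) and in CM (log2 difference -2.04, SE 0.27, adjusted p = 8.44e-06).

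G2e3, a ubiquitin ligase named for its G2/M expression, read 891, 1293 and 1021 in ES-LIF(+), 2047, 2222 and 1762 in ES-LIF(-), 472, 494 and 442 in CP and 294, 359 and 517 in CM and was lower in CP (log2 difference -1.14, SE 0.18, adjusted p = 6.53e-05) and in CM (log2 difference -1.44, SE 0.18, adjusted p = 3.41e-06). Pmaip1 (Noxa), a BH3-only inducer of apoptosis, read 345, 322 and 288 in ES-LIF(+), 744, 721 and 801 in ES-LIF(-), 179, 191 and 176 in CP and 233, 210.3 and 217 in CM and was lower in CP (log2 difference -0.76, SE 0.13, adjusted p = 2.39e-04). It was the member on a list of p53 and stress response targets of which 2 of 13 tested genes were higher in ES-LIF(-), the other being Chac1 (0.92, adjusted p = 0.00612). Ccno, an atypical cyclin, was not called. On the germ line list Ddx4 was also higher in ES-LIF(-) (0.65, adjusted p = 0.04), and Prdm1 and Stra8 were lower (-1.13 and -1.24).

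Magel2 and Snhg14 come from the imprinted region of chromosome 7 that corresponds to the human Prader-Willi locus. Snhg14, a noncoding host of small nucleolar RNAs, read 605, 1191 and 783 in ES-LIF(+), 1603, 2124 and 2038 in ES-LIF(-), 427, 372 and 509.6 in CP and 462, 427 and 316 in CM and was lower in CP and CM than in ES-LIF(+) (log2 difference -0.91, SE 0.21, adjusted p = 0.00207, in CP and log2 difference -1.03, SE 0.21, adjusted p = 5.20e-04, in CM). Magel2, a regulator of ubiquitin ligases, read 216, 316 and 218 in ES-LIF(+), 618, 509 and 587 in ES-LIF(-), 376, 258 and 286 in CP and 157, 240 and 146 in CM, and its only call was a lower level in CM than in CP (log2 difference -0.73, SE 0.21, adjusted p = 0.0134).

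Genes best known from excitable cells made up 9 members, beside a neural ectoderm list with none of its 8 tested genes higher in ES-LIF(-). Kcnk1, a potassium channel of the leak type, read 1115, 1128 and 1148 in ES-LIF(+), 3433, 3199.6 and 2996 in ES-LIF(-), 834, 759.6 and 895 in CP and 468, 546 and 564 in CM and was lower in CM (log2 difference -1.08, SE 0.10, adjusted p = 1.05e-07). Rims3, a synaptic active zone protein, read 225, 346 and 179.7 in ES-LIF(+), 433, 449.9 and 454 in ES-LIF(-), 196, 139.8 and 199 in CP and 37.9, 29.8 and 46.5 in CM, and its CM arrays were below the CP arrays (log2 difference -1.84, SE 0.24, adjusted p = 3.01e-05). Jakmip2 and Tub were also lower in CM than in ES-LIF(+) (-1.38 and -0.86), and the synaptic genes Cnih2 and Cbln4 were not called. The call of Jakmip2, which passed the filter only with the ES-LIF(-) arrays, is not read.

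Of the junctophilins, which tether the endoplasmic reticulum to the cell membrane, Jph1, Jph3 and Jph4 were members. Jph1 read 274, 295 and 309 in ES-LIF(+) and 743, 628 and 783 in ES-LIF(-), Jph3 189.8, 236 and 148 and 301, 333 and 421, and Jph4 275, 282 and 270.2 and 679, 725 and 574. None of them was called in CP or CM. Jph2, the junctophilin of heart muscle, was not called in ES-LIF(-) against ES-LIF(+) (0.34, adjusted p = 0.647) and had a mean signal of 3298 in CM.

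Adhesion and matrix genes were 6. Emb (embigin), a partner of monocarboxylate transporters, read 3765, 3489.9 and 3129 in ES-LIF(+), 8382, 7545 and 8333 in ES-LIF(-), 4271, 4839 and 4752 in CP and 3312, 3992 and 4053 in CM, with CP within 1.5-fold of ES-LIF(+) (log2 difference 0.42, SE 0.09, adjusted p = 0.0015). Pcdh1, a protocadherin, was higher in CP than in ES-LIF(+) (log2 difference 0.59, SE 0.19, adjusted p = 0.0185), a call lost in 6 of 23 other settings: median centering (0.30), quantile normalization (0.28), a pseudocount of 64 (0.49), and without CP array 1 (0.48) or ES-LIF(+) array 2 (0.48) or 3 (0.53). Sned1, a matrix protein, read 172, 236 and 52.3 in ES-LIF(+), 385, 375 and 408 in ES-LIF(-), 174, 191 and 39.5 in CP and 22.1, 23.1 and 19.1 in CM and was lower in CM than in CP (log2 difference -1.80, SE 0.49, adjusted p = 0.00927), which was lost without the second CP array (-1.46). Cdh9 and Cdh10, neighboring type II cadherins on chromosome 15, read 225, 292 and 279 and 225, 188 and 213 in ES-LIF(-). Cdh9 was lower in CP and CM (-0.81 and -1.46) and Cdh10 was not called. The calls of Cdh9, which passed the filter only with the ES-LIF(-) arrays, are not read. Emilin3, an elastin-associated protein, was not called.

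Enzymes and transporters were 15, with 6 lower in CM and 2 lower in CP than in ES-LIF(+), where 23.9% and 13.4% of all tested genes were. Slc16a3, the lactate exporter MCT4, read 3114, 2502 and 3497 in ES-LIF(+), 7834, 5719.5 and 4807 in ES-LIF(-), 2581, 2702 and 2682 in CP and 2975, 2604 and 4022 in CM and was called in no tested contrast. Ugt8a, which makes galactosylceramide, read 501, 446 and 416 in ES-LIF(+), 894, 788 and 915 in ES-LIF(-), 242, 255 and 294 in CP and 45.9, 76.7 and 94.3 in CM and went down at each step (log2 difference -0.75, SE 0.19, adjusted p = 0.00442, in CP against ES-LIF(+) and log2 difference -1.70, SE 0.19, adjusted p = 7.40e-06, in CM against CP). Slc35d3, a nucleotide sugar transporter family gene, read 30.4, 86.1 and 61.2 in ES-LIF(+), 251, 252 and 164 in ES-LIF(-), 87.5, 87.6 and 68.1 in CP and 12.7, 5.4 and 6.6 in CM and was called lower in CM than in CP (log2 difference -2.01, SE 0.37, adjusted p = 5.65e-04). Slc35d3 lay below the array median on every array outside ES-LIF(-) and passed the filter only through ES-LIF(-), so the size of that difference is not read.

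Pm20d2, a peptidase, was lower in CP than in ES-LIF(+) (log2 difference -0.82, SE 0.23, adjusted p = 0.00785) and higher in CM than in CP (log2 difference 0.68, SE 0.23, adjusted p = 0.0315), the latter lost without CM array 1 or 2 or CP array 1 or 3, with a pseudocount of 64 and with only the arrays of CP and CM in the fit. Nat8l, which makes N-acetylaspartate, the sialyltransferase gene St6gal2 and Rbp7, a retinoid binding protein, were lower in CM (-0.67, -1.64 and -1.27), as was Moxd1, a monooxygenase. The call of Rbp7, which passed the filter only with the ES-LIF(-) arrays, is not read. Car14, a carbonic anhydrase, Lhpp, a phosphatase, Gatm, the first enzyme of creatine synthesis, Rimkla, Acp5 and St8sia3 were called in none of the 3. Aadat, an aminotransferase of lysine and kynurenine breakdown, was lower in CM than in CP alone (log2 difference -0.88, SE 0.31, adjusted p = 0.0366). Aadat, too, passed the filter only with the ES-LIF(-) arrays, and its call is not read.

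The remaining 18 members are less characterized. Tmem54, a membrane protein gene, had the second widest margin (1.92) and read 181, 131 and 119 in ES-LIF(+), 731, 528 and 502 in ES-LIF(-), 118, 141 and 66.2 in CP and 111, 92.8 and 158 in CM, so that ES-LIF(+), CP and CM overlapped. Flywch2, a zinc finger family gene, was dim and uneven outside the peak, with 32.3, 73.5 and 155 in ES-LIF(+) and 221, 230.3 and 232 in ES-LIF(-). Ms4a4d read 296, 369 and 355 in ES-LIF(-) against 109, 161 and 104 in ES-LIF(+), and Gm9564 read 449.5, 710.5 and 466 against 252, 214 and 181. 2610528J11Rik was lower in CP (log2 difference -1.23, SE 0.45, adjusted p = 0.0327), a call carried by 1 CP array at 8.3 and lost without it (-0.54), without the first ES-LIF(+) array (-1.10) or without the second (-1.07). It was also lost, at the same difference, without the intensity trend, with the unmoderated model and with only the arrays of the stages compared. 2610528J11Rik passed the filter only with the ES-LIF(-) arrays, and its call is not read. Bmerb1 was lower in CP and CM than in ES-LIF(+) (-0.61 and -1.09), Gm9564 was lower in CM than in ES-LIF(+) and in CP (-1.09 and -0.98), and H2-Bl was lower in CM than in CP (-0.62). The other members of this group, Tlcd3b, Fam184b, Rab19, Dennd11, Sel1l3, Trim12c, Ccdc114, Tmem47, Fndc3c1 and Pphln1 among them, were called in no tested contrast.

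The members just inside and outside the rule differed little. St8sia3, Emb and Peli2 were kept with margins of 0.807, 0.806 and 0.801, and A930024E05Rik, Ptbp2 and Cyfip2 were left out at 0.798, 0.795 and 0.794. At the floor of 200, Fam184b, Cdh10 and Cbln4 were kept with mean ES-LIF(-) signals of 208, 209 and 213, and Bcl2l14, Mal2 and Ftx were left out at 187, 183 and 183 with margins of 0.81, 1.37 and 1.11. Without the floor 149 genes met the margin.

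Other probe sets of the same genes did not choose the members, although they were read from the same 12 arrays. There were 79 of them for 48 genes, and 45, of 31 genes, passed the filter. ES-LIF(-) was the highest stage for 33 of the 45, and 41 had a higher mean in ES-LIF(-) than in ES-LIF(+). The median margin was 0.52, and 14 probe sets of 13 genes reached 0.8. The second probe set of Pou3f1 had a margin of 1.65, that of Dnmt3b 1.62 and that of Kcnk1 1.45. The 4 further probe sets of Dnmt3a split, with margins of 1.72 and 1.48 for 2 of them and their highest level in CM for the other two (-0.73 and -1.11). The second probe set of Fgf5 rose by 2.95 over ES-LIF(+) and had its highest mean in CP (margin -0.14), and a dim one of Sox3, with 137 in ES-LIF(-), had a margin of -0.24. For 7 of the 31 genes no other probe set that passed the filter was highest in ES-LIF(-). Besides Fgf5 and Sox3 these were Grb10 (margins -0.54 and -0.96), Rragd (-0.87), Cdh10 (-0.72), Epha1 (-0.22) and Sema6a (-0.22). A further 55 members had no other probe set, and the genes among the 48 but not the 31 had none that passed. The peak of all these genes rests on 1 probe set.

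**Figure D5:**
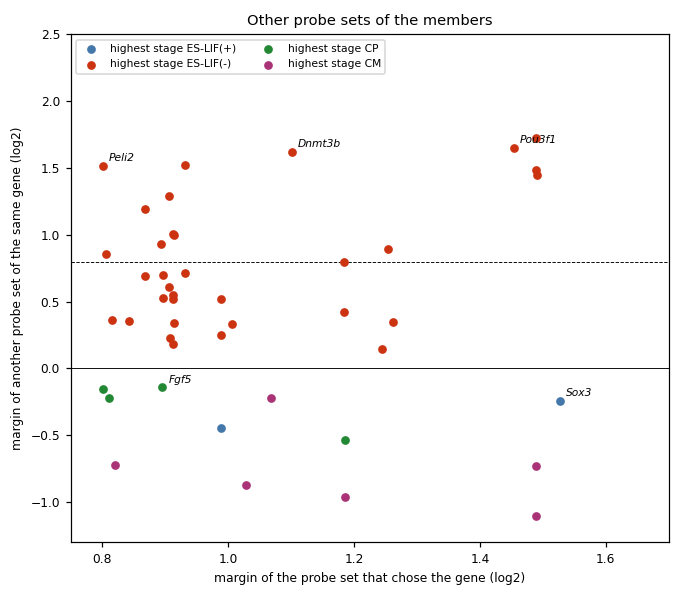
Margin of each further probe set that passed the filter (y axis, log2) against the margin of the probe set that chose the gene (x axis, log2), colored by the stage in which the further probe set was highest, with the dashed line at 0.8. Of the 45 points 33 lie above 0 and 14 at or above the dashed line.

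The members lay on 20 chromosomes, with 10 each on chromosomes 4 and 7. Besides Zic2 with Zic5 and Cdh9 with Cdh10, no pair of members was adjacent among protein-coding genes, and Peli2 with Otx2 had 1 protein-coding gene between them. RefSeq lists 99 of the 103 as protein coding.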

How the data were processed

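The authors deposited linear signal intensities of 12 Affymetrix mouse genome arrays, which MAS5 had summarized and scaled, as a trimmed mean of 500 on every array showed; depth does not apply, and 3 arrays per stage limit the precision. Control probe sets (64) were set aside. Probe sets that name 1 gene (34945 of 45037) represented 18193 genes, each by its highest mean log2(signal + 16). Genes above the array median on at least 3 arrays (13145) were fitted over all 4 stages with limma 3.58.1 in R 4.3.3, with an intensity trend and Benjamini-Hochberg adjustment over all genes tested. A call needed an adjusted p under 0.05 and a fold over 1.5, and differences of log2 means understate changes of dim genes. The script was tested on simulated data. Groups came from the sample labels. Detection flags were not used here.

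The members, gene lists and motifs were chosen with earlier results of these data known. Genes named were the 20 widest margins, the 10 highest ES-LIF(-) signals, members of a list, the 5 largest calls per contrast and direction and the 3 genes on either side of the limits; others were named by role. Promoters came from RefSeq windows on GRCm38.p6. Alternatives covered pseudocount, filter, scaling, model, probe set choice, replicate block and leaving out each array.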

Additional observations from a re-analysis of the deposited data

How the results depend on the processing

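The direction of every value named with a call stayed the same in all settings run. With each array centered on its median, which moved the median of all genes by -0.28 in CP and -0.32 in CM against ES-LIF(+), members higher in CP went from 4 to 1, lower in CP from 23 to 45 and lower in CM from 41 to 70, and with quantile normalization to 2, 37 and 63. All 23 and 41 genes of the original lower calls were among those called in both settings. A filter on all 12 arrays, which drops members dim in CP or CM, left 12 lower in CP, 19 lower in CM, and 1 higher and 15 lower between CM and CP. The mean over probe sets and a pseudocount of 1 each called 1 member higher in CM, and apart from leaving out single arrays no other setting called any. Without 1 array at a time, members higher in CP ranged from 2 (without the first CP or the third ES-LIF(+) array) to 5, lower in CP from 17 to 25, higher in CM from 0 to 2 (2 without the second ES-LIF(+) array, and 1 without the first ES-LIF(+), first CM or second CM array), lower in CM from 39 to 45, higher in CM than in CP from 0 (without the third CP array, and 1 without the first CM array) to 3 and lower from 28 to 35. The number of members was 196 at a margin of 0.6, 55 at 1.0, 64 with a floor of 400 and 26 when every ES-LIF(-) array had to lie 0.8 above every other array, and 97 to 119 without 1 array. Of the 620 further values of single genes and lists under other settings 580 kept their call, 38 lost it and 2 list counts moved.

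Arrays with the same number did not deviate together, with correlations from -0.05 to 0.10 over 18 pairs and none over 0.1, so the numbers do not pair the arrays. With the replicate number as a block the counts were 4 higher and 23 lower in CP, 0 and 42 in CM, and 3 and 34 between CM and CP.

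Signal over background limits the values of members that were dim outside ES-LIF(-), and only 50 of the 103 were above the median on all 12 arrays. Alternative scalings were not ranked.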
